A study of Mus musculus with 40 samples.

Results

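Cortical principal cells line the collecting duct where it runs through the kidney cortex, and their nuclei were taken here as all nuclei that the authors' deposited annotation puts in the class CPC (cortical principal cell). That class holds 443 of 16500 nuclei (2.68%), with 151 from sham mouse 1, 68 from sham mouse 2, 148 from nephrectomised mouse 1 and 76 from nephrectomised mouse 2. The study followed the right kidney of male C57BL/6 mice, 8 to 12 weeks old, after the left kidney had been taken out (unilateral nephrectomy, UNx) or after a sham operation that left both kidneys in place. The single-nucleus arm has 2 sham and 2 UNx mice, all at 24 h after surgery, with 1 library a mouse. Both groups had isoflurane anaesthesia, abdominal surgery and buprenorphine, so the shams control for these and not for an unoperated kidney. A slice from the middle of the kidney was lysed, the nuclei were sorted on a DNA stain (DAPI), and libraries were made in droplets with a kit that captures transcripts at the 3′ end. The nuclei therefore report RNA in and attached to the nucleus and not the whole cell. By the labels, sham 1 and UNx 1 form batch 3, and sham 2 and UNx 2 form batch 4.

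Principal cells reabsorb water and sodium and secrete potassium under hormonal control. Vasopressin acts on the receptor AVPR2, raises cyclic AMP and brings the water channel aquaporin 2 to the luminal membrane, while aquaporins 3 and 4 let the water leave on the blood side. Aldosterone acts on the mineralocorticoid receptor, which cortisol-like hormones would also bind if HSD11B2 did not break them down, and raises the activity of the epithelial sodium channel ENaC. The same cells hold the potassium channel ROMK at the luminal membrane. The segment upstream is the connecting tubule (class CNT, 494 nuclei), and the collecting duct goes on into the medulla (class MPC, medullary principal cells, 654 nuclei).

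Counts were summed per mouse over the CPC nuclei, and a level is given as UMIs (distinct molecules counted) per 1000000 UMIs of that sum, CPM. The sums came to 0.933, 0.797, 0.930 and 0.609 M (1000000) UMIs in sham 1, sham 2, UNx 1 and UNx 2, the order of mice in every set of 4 values here. The CPC nuclei of batch 4 stood apart from those of batch 3. Of the CPC nuclei, 0, 11, 0 and 7 had more than 15000 UMIs, and these few held 46.4% of the CPC UMIs of sham 2 and 22.8% of those of UNx 2. A total of 16 markers of the proximal tubule, thick ascending limb and distal convoluted tubule summed to 3891, 14975, 6683 and 16228 CPM in the CPC nuclei up to that limit, and to 20296 and 19895 CPM in the nuclei above it in sham 2 and UNx 2. The 9 markers of principal cells summed to 3544, 3274, 3855 and 2558 CPM up to the limit, and to 1147 and 1584 CPM above it. RNA of other segments was thus higher in both CPC sums of batch 4 than in both of batch 3, also in the nuclei up to the limit, and each result is therefore given by mouse. No CPC nucleus shared its barcode with a nucleus of another library, although 18 barcodes of the whole data set occur in more than 1.

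**Figure D1:**
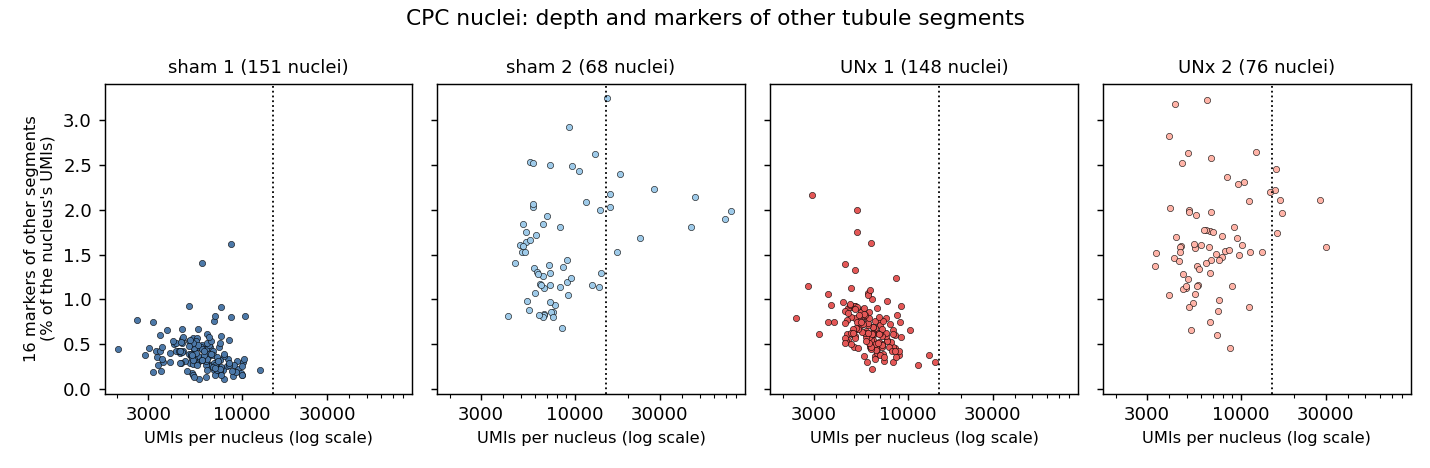
Each point is 1 CPC nucleus; the x axis is its UMI total (log scale), the y axis the share of its UMIs from 16 markers of other tubule segments, and the dotted line marks 15000 UMIs. The nuclei of sham 2 and UNx 2 (batch 4) sit higher than those of sham 1 and UNx 1, and all 18 nuclei right of the line belong to those 2 mice.

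The name of the class held up against its markers. Aqp2, the vasopressin-regulated water channel, was at 507, 474, 459 and 406 CPM in CPC, against a mean of 570.4 CPM in MPC, 140.0 CPM in CNT and a median of 80.0 CPM over the classes outside these. Scnn1g, the gamma subunit of ENaC, averaged 301 CPM in CPC and 432 CPM in CNT, but 11.2 CPM in MPC. Avpr2 averaged 43.9 CPM in CPC, 47.6 CPM in MPC and 22.7 CPM in CNT. CPC therefore carried the water channel at the level of the medullary principal cells and the sodium channel near the level of the connecting tubule. Aqp3, Fxyd4 (a regulator of the sodium pump) and Hsd11b2 had their highest mean in CPC among the 23 classes with at least 10 nuclei in every mouse, at 78.2, 860.2 and 225 CPM. The rest of the 9 principal cell markers were highest in another class and second in CPC. Scnn1b averaged 618 CPM in CPC and 759 CPM in CNT, and Elf5 75.0 CPM in CPC and 231 CPM in MPC. Gata3 averaged 343 CPM in CPC and 405 CPM in the class Uro. These are descriptions, since the classes come from the same nuclei.

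Genes that mark the neighbours were present at lower levels. Slc8a1, the sodium-calcium exchanger of the connecting tubule, averaged 1341 CPM in CPC and 33594 CPM in CNT, and Calb1, a calcium-binding protein, 223 and 1586 CPM. Slc14a2, the urea transporter of the inner medulla, averaged 138 CPM in CPC and 11412 CPM in MPC, and Aqp4 216 and 572 CPM. The 8 markers of intercalated cells, the acid-base cells that lie between principal cells, summed to 15.0, 71.4, 40.9 and 56.7 CPM in CPC. The 5 immune markers summed to 8.93, 27.6, 15.1 and 23.0 CPM, the 4 endothelial ones to 23.6, 134, 22.6 and 145 CPM, and the 5 fibroblast ones to 5.36, 45.2, 11.8 and 47.6 CPM. The 4 podocyte markers summed to 2.14, 59.6, 6.45 and 27.9 CPM and the 4 fat cell markers to 2.14, 0, 1.61 and 8.21 CPM.

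**Figure D2:**
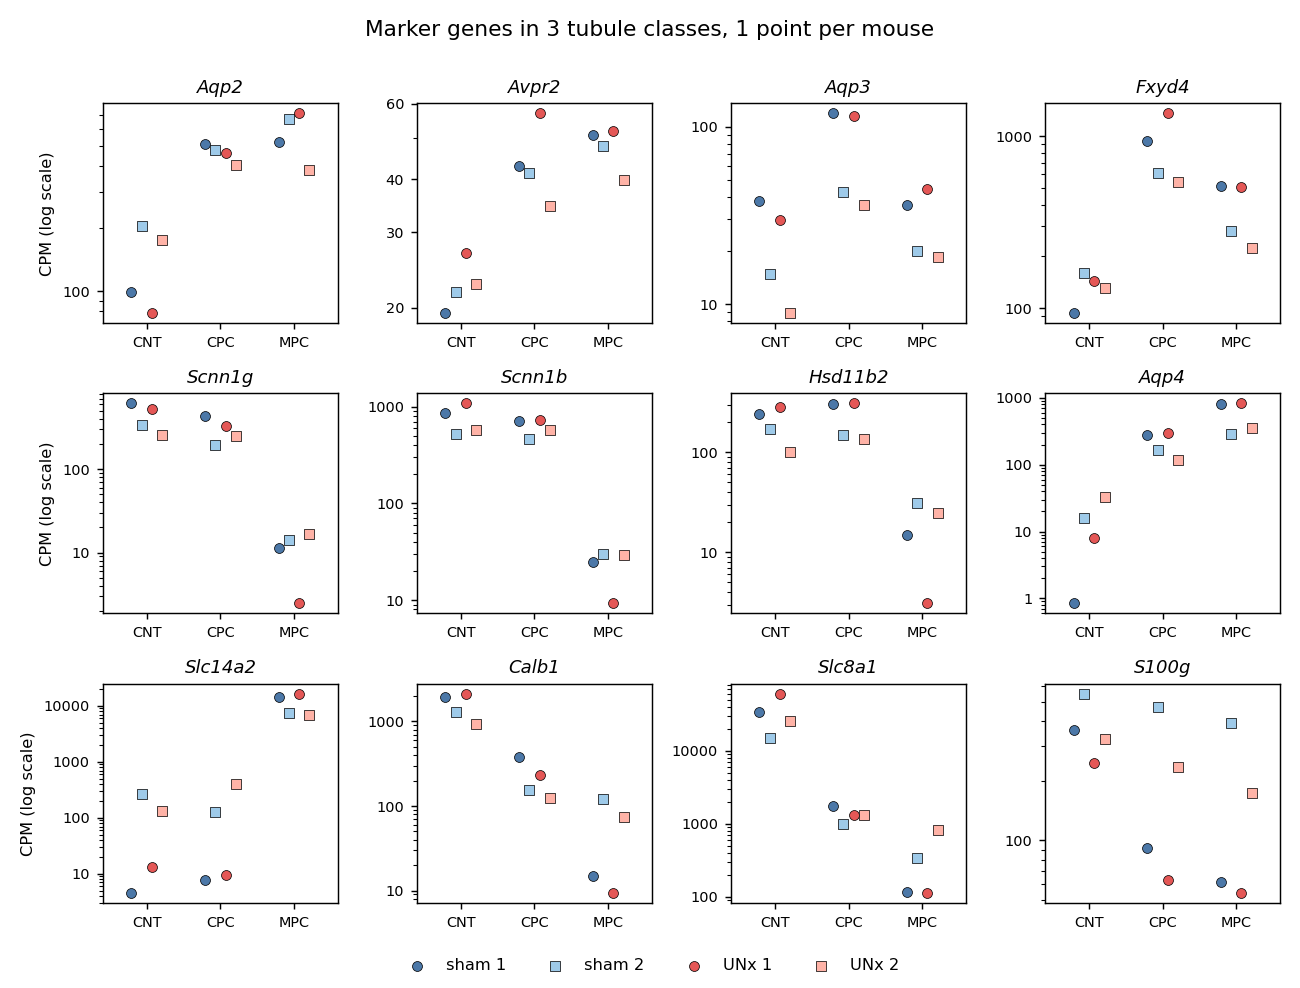
The y axis of each panel is the level of 1 gene in CPM (log scale), the x axis the class (CNT, CPC, MPC), and each point is 1 mouse; circles are batch 3 and squares batch 4. Aqp2, Avpr2 and Fxyd4 separate CPC from CNT, and Scnn1g, Scnn1b and Hsd11b2 separate it from MPC, in all 4 mice.

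Thinned to 3000 UMIs, which left out 6 shallower CPC nuclei (3 each of sham 1 and UNx 1), Aqp2 was seen in 77.0, 76.5, 66.9 and 75.0% of the CPC nuclei of the 4 mice. Without thinning the shares were 92.7, 92.6, 85.8 and 89.5%, at median depths of 6007, 7269, 6082 and 6683 UMIs. In proximal tubule S1 nuclei (PTS1), which do not make the channel, the thinned shares were 3.38, 32.3, 3.64 and 24.4%, which sets the background, and that background was higher in batch 4. Scnn1g was seen in 66.2, 42.6, 53.8 and 43.4% of thinned CPC nuclei, in 0.505 to 3.18% of MPC nuclei and in 0.106 to 1.86% of S1 nuclei. Avpr2, a gene of low level, was seen in 12.8, 8.82, 15.2 and 7.89% of CPC nuclei and in 0.106 to 2.33% of S1 nuclei. All 3 defining genes were thus seen more often in CPC than in the S1 background in every mouse.

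Of 7489 genes with a mean of at least 20 CPM in CPC, 65 were higher there than in each of the 22 other classes in all 4 mice, 17 of them by at least 1.5-fold. Most of those with the largest ratios are not transport genes. Mgat4c, a glycosyltransferase family member, was at 2481, 968, 2809 and 1069 CPM, with 90.1 CPM in the next class, MPC. Kcnh5, a voltage-gated potassium channel, was at 297, 275, 489 and 240.0 CPM, and the next class, CNT, had 49.4 CPM. Both genes led in both batches, although batch 4 had the lower level of each within each group.

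Col26a1, a collagen, followed at 697, 385, 859.6 and 539 CPM (165 CPM in CNT). Mcoln3, an endolysosomal cation channel, was at 262, 104, 227 and 145 CPM (19.6 CPM in CNT), and Btc, the EGF receptor ligand betacellulin, at 352, 185, 283 and 275 CPM (38.7 CPM in the class MD). Mgat4c was seen in 95.3, 83.8, 96.6 and 85.5% of thinned CPC nuclei, against 8.97 to 26.0% in MPC, 2.22 to 3.62% in CNT and 1.90 to 4.46% in S1. Kcnh5 was seen in 41.2, 55.9, 58.6 and 38.2% of CPC nuclei, in 8.52 to 11.6% of CNT nuclei and in 0.505 to 1.95% of MPC nuclei.

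The comparison of UNx with sham asks what removal of the other kidney had done to these cells by 24 h. With the batch as a block, 20 of 9843 genes passed an adjusted p of 0.05 (0.203%), 15 of them higher (0.152%) and 5 lower (0.0508%) in UNx, while 642 (6.52%) had an unadjusted p under 0.05. Among the 15 were 6 mitochondrially encoded genes, the kidney-rich coenzyme A hydrolase Nudt19 and Ralyl, an RNA-binding protein, and among the 5 were Lrrc31, a leucine-rich repeat protein, and the epidermal growth factor gene Egf. All 20 moved the same way in both batches, which the block favours when it calls genes and which is given as a description only (24.2% of all genes tested were higher and 26.5% lower in UNx in both). Without the block, edgeR called 0 genes (30, or 0.305%, at an unadjusted p under 0.05), and so did DESeq2 and limma voom. Without the nuclei above 15000 UMIs the fit with the block called 0 of 8999 genes (404, or 4.49%, at an unadjusted p under 0.05), with 19 of the 19 genes still tested in the same direction. The limit of 15000 UMIs was chosen after the data were seen.

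Both groups have 1 mouse in each batch, and the batch itself moved far more genes than the operation: 2390 of 9843 genes passed for batch 4 against batch 3, or 1003 of 8999 without the nuclei above the limit. Fold changes below are therefore from the fit with the batch as a block, as log2(UNx/sham) ± SE, unless stated otherwise, and the median over all genes tested was -0.00. Calls were made across all genes tested.

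Water handling came first among the questions about principal cells, and none of its genes passed the test. Of the 18 genes of the water and vasopressin list, 16 were tested, 0 were called, and their median log2 fold change was 0.08. Aqp2 was at 507 and 474 CPM in the sham mice and 459 and 406 CPM in the UNx mice, -0.16 ± 0.18 (adjusted p = 0.975). Both UNx values lay below both sham values, by less than the SE of the fit. Without the nuclei above 15000 UMIs the levels were 507, 641, 459 and 457 CPM and the log2 fold change was -0.30 ± 0.16.

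Aqp3, at the blood side, was at 119 and 42.7 CPM in sham and 115 and 36.1 CPM in UNx (-0.12 ± 0.26). Aqp4 was at 278 and 164 CPM in sham and 303 and 119 CPM in UNx (-0.12 ± 0.20). Avpr2 was at 42.9 and 41.4 CPM in sham and 57.0 and 34.5 CPM in UNx (0.14 ± 0.32). In each of these 3 genes the batches differed more than the groups did, or the 2 batches gave opposite directions.

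Of the 16 genes tested, 2 had an unadjusted p under 0.05, against 6.52% of all genes tested. Both act downstream of the receptor and limit or answer cyclic AMP. Pde4b, a phosphodiesterase that breaks down cyclic AMP, was at 133 and 77.2 CPM in sham and 69.0 and 47.7 CPM in UNx (-0.83 ± 0.26, adjusted p = 0.300). Crem, a cyclic AMP-responsive transcription factor, was at 141 and 42.6 CPM in sham and 78.5 and 35.3 CPM in UNx (-0.64 ± 0.28, adjusted p = 0.677). Both were lower in UNx in each batch, and neither passed the threshold over all genes. Pde4d, of the same list, was at 2113 and 3075 CPM in sham and 3078 and 2507 CPM in UNx (0.15 ± 0.19). It was higher in UNx in batch 3 and lower in batch 4. Adcy6, the adenylyl cyclase of these cells, and Prkaca, a catalytic subunit of protein kinase A, were at 0.37 ± 0.26 and 0.31 ± 0.39.

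Sodium transport gave the same count. All 9 genes of its list were tested, 0 were called, and the median log2 fold change was 0.15. Scnn1a, the alpha subunit of ENaC, was at 137 and 164 CPM in sham and 126 and 108 CPM in UNx (-0.33 ± 0.22, adjusted p = 0.868). Scnn1b was at 709 and 464 CPM in sham and 722 and 577 CPM in UNx (0.19 ± 0.18), and Scnn1g at 428 and 196 CPM in sham and 331 and 248 CPM in UNx (-0.03 ± 0.21). With all nuclei the 3 subunits did not share a direction. Without the nuclei above 15000 UMIs all 3 values were negative, at -0.52 ± 0.24 for Scnn1a, -0.03 ± 0.15 for Scnn1b and -0.20 ± 0.19 for Scnn1g, and none was called. Fxyd4 was at 930.2 and 613 CPM in sham and 1354 and 544 CPM in UNx (0.22 ± 0.19), higher in 1 batch and lower in the other.

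Of the 15 genes of the aldosterone list, 14 were tested and 0 were called, with a median log2 fold change of -0.08. Nr3c2, the mineralocorticoid receptor, was at 2785 and 1249 CPM in sham and 2646 and 1327 CPM in UNx (0.03 ± 0.18), with its highest mean of the 23 classes in CPC. Hsd11b2 was at 306 and 150.3 CPM in sham and 307 and 135 CPM in UNx (-0.05 ± 0.20). For both, the levels of sham and UNx mice of 1 batch lay close together. Sgk1, a kinase induced by aldosterone, was at 48.2 and 88.8 CPM in sham and 39.8 and 50.1 CPM in UNx (-0.54 ± 0.30, adjusted p = 0.816).

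Zbtb16, a transcriptional repressor that corticosteroids induce, had the lowest p of the aldosterone list. It was at 65.9 and 118 CPM in sham and 26.9 and 61.6 CPM in UNx, -1.06 ± 0.28 (unadjusted p = 0.000770, adjusted p = 0.139). It was lower in UNx in both batches and came to -1.33 ± 0.26 without the nuclei above 15000 UMIs. Tsc22d3 and Per1, also corticosteroid-responsive, were at 0.33 ± 0.36 and 0.04 ± 0.45. Fkbp5, another such gene of the list, was lower in UNx in both batches (-0.49 ± 0.28, adjusted p = 0.836). Without the nuclei above 15000 UMIs Fkbp5 came to -0.15 ± 0.35. The separate list of 14 glucocorticoid response genes, in which Zbtb16 had the lowest value, did not share this direction. Its 11 tested genes ran from -1.06 to 2.04, with a median of 0.33 and 0 called. Of the 11, 6 were higher and 3 lower in UNx in both batches, against 24.2% and 26.5% of all genes tested.

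Of the 6 potassium channel genes, 5 were tested, 0 were called, and the median was 0.02. Kcnj1, which encodes ROMK, was at 179 and 115 CPM in sham and 172 and 124 CPM in UNx (0.02 ± 0.21). Kcnq1 was at 1321 and 679 CPM in sham and 1083 and 658 CPM in UNx (-0.15 ± 0.18). Over the 4 lists, 38 of the 44 genes tested lay between -0.5 and 0.5 on the log2 scale (86.4%, against 79.6% of all genes), with standard errors from 0.18 to 0.45. An unadjusted p under 0.05 was found for 3 of the 44, against 6.52% of all genes tested. A p above the threshold does not show that these genes kept their level.

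**Figure D3:**
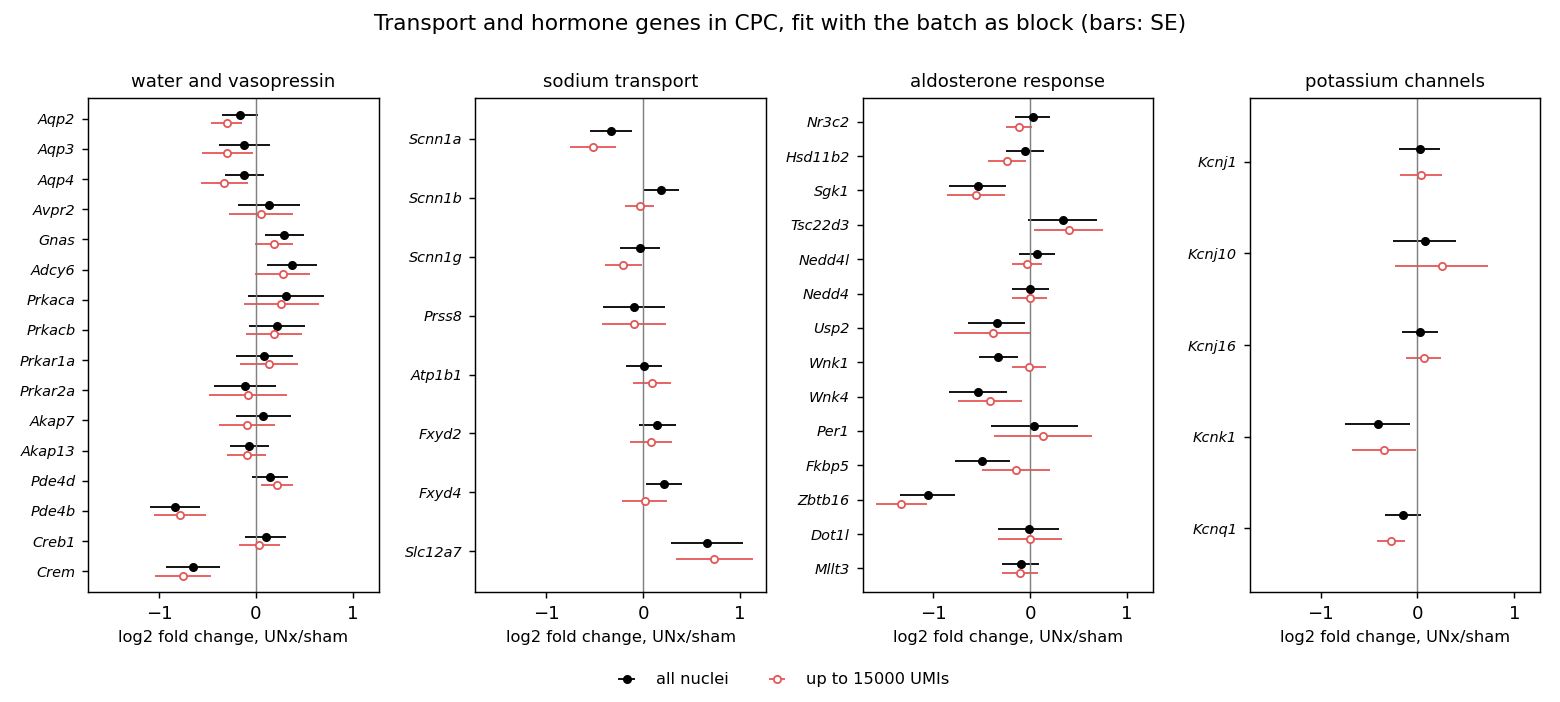
The x axis is log2(UNx/sham) in CPC from the fit with the batch as a block, bars are 1 SE, and each row is a gene of the water, sodium, aldosterone or potassium list, with 1 of the 44 left out; filled points use all nuclei and open points those up to 15000 UMIs. Most genes lie within 0.5 of 0 with all nuclei, and Pde4b (-0.83), Crem (-0.64) and Zbtb16 (-1.06) lie furthest to the left.

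The gene with the lowest p among those lower in UNx was Lrrc31, on chr3:30679058-30699843 (minus strand, mm10). It was at 66.4 and 74.4 CPM in sham and 17.2 and 18.1 CPM in UNx, -1.96 ± 0.35 (adjusted p = 0.00439 with the block; unadjusted p = 0.00282 without it). The groups did not overlap, which was a condition of the naming rule and holds for 10.4% of all genes in this direction. The 2 mice of a group differed little although they belong to different batches, which a low p without the block favours. Both are given as descriptions only. Without the nuclei above 15000 UMIs it was at 66.4, 60.9, 17.2 and 14.9 CPM (-1.98 ± 0.35, adjusted p = 0.473). In MPC it was at 90.9 and 53.9 CPM in sham and 35.9 and 25.0 CPM in UNx, where the fit with the block also called it (-1.16 ± 0.27, adjusted p = 0.0431). The difference of the effects, CPC minus MPC, was -0.85 ± 0.52 (unadjusted p = 0.145).

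Ralyl, on chr3:13471655-14182287 (plus strand), was at 109.9 and 98.3 CPM in sham and 186 and 233 CPM in UNx, 1.01 ± 0.22 (adjusted p = 0.0338). The groups did not overlap, as for 8.84% of all genes in this direction, which is also given as a description only. It was the 1 gene of the 20 with its highest mean level in CPC, at 156.8 CPM. Nudt19, on chr7:35547185-35556304 (minus strand), was at 40.7 and 141 CPM in sham and 141 and 311 CPM in UNx, 1.44 ± 0.22 (adjusted p = 0.00133). It was higher in UNx in both batches, but its level was highest in proximal tubule S3 nuclei (473 CPM), and it was also called in MPC (0.98 ± 0.23, adjusted p = 0.0393).

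The other called genes stand outside the naming rule, except Coro2a, and were named after their values were seen. Odc1, the first enzyme of polyamine synthesis, was at 27.9 and 111 CPM in sham and 79.6 and 229 CPM in UNx (1.27 ± 0.24). Ces2c, a carboxylesterase, was at 11.8 and 44.3 CPM in sham and 34.4 and 122 CPM in UNx (1.54 ± 0.32). Both had their highest level in proximal tubule S2 nuclei. The sum of 8 proximal tubule markers in CPC was higher in UNx in each batch (3542 against 6385 CPM, and 12649 against 14206 CPM). Of the 8, 3 were higher and 1 was lower in UNx in both batches, against 24.2% and 26.5% of all genes tested. Their median log2 fold change was 0.07. Kap, with the largest value of the 8 (0.63), had its highest mean in the endothelial class EC2 (8758 CPM). The part of proximal tubule RNA in Odc1 and Ces2c was not tested.

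Slc14a2 was at 7.86 and 125 CPM in sham and 9.36 and 409 CPM in UNx (1.61 ± 0.29), against 14655, 7526, 16628 and 6841 CPM in MPC. Nearly all of its difference lay in batch 4. Egf, made by the thick ascending limb and distal convoluted tubule, was at 67.5 and 1304 CPM in sham and 42.0 and 439 CPM in UNx (-1.22 ± 0.22). Keg1, a proximal tubule gene, was at 103 and 1378 CPM in sham and 88.2 and 296 CPM in UNx (-1.35 ± 0.26). Egf and Keg1 came to -0.49 ± 0.20 and -0.53 ± 0.21 without the nuclei above 15000 UMIs, since sham 2 then had 632 and 413 CPM of them. The 4 distal convoluted tubule markers, Egf among them, summed to 138, 2270.0, 94.7 and 923 CPM with all nuclei, and to 138, 836, 94.7 and 1067 CPM without those above 15000 UMIs, so that UNx 2 was below sham 2 in the first and above it in the second.

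Nedd9, a scaffold of focal adhesion signalling, was at 289 and 94.9 CPM in sham and 100.5 and 50.9 CPM in UNx (-1.30 ± 0.24). Coro2a, a coronin family member, was at 80.4 and 8.90 CPM in sham and 12.9 and 4.93 CPM in UNx (-2.31 ± 0.50, adjusted p = 0.0388), with most of its counts in sham 1. Both were lower in UNx in each batch, while UNx 1 was above sham 2. Gm42418, which overlaps ribosomal RNA sequence, was at 2037 and 15150.0 CPM in sham and 3888 and 43132 CPM in UNx (1.25 ± 0.20). Camk1d, a calcium-dependent kinase, Cmss1 and the predicted gene Gm43305 were called higher too (1.10 ± 0.22, 0.87 ± 0.19 and 1.20 ± 0.20).

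**Figure D4:**
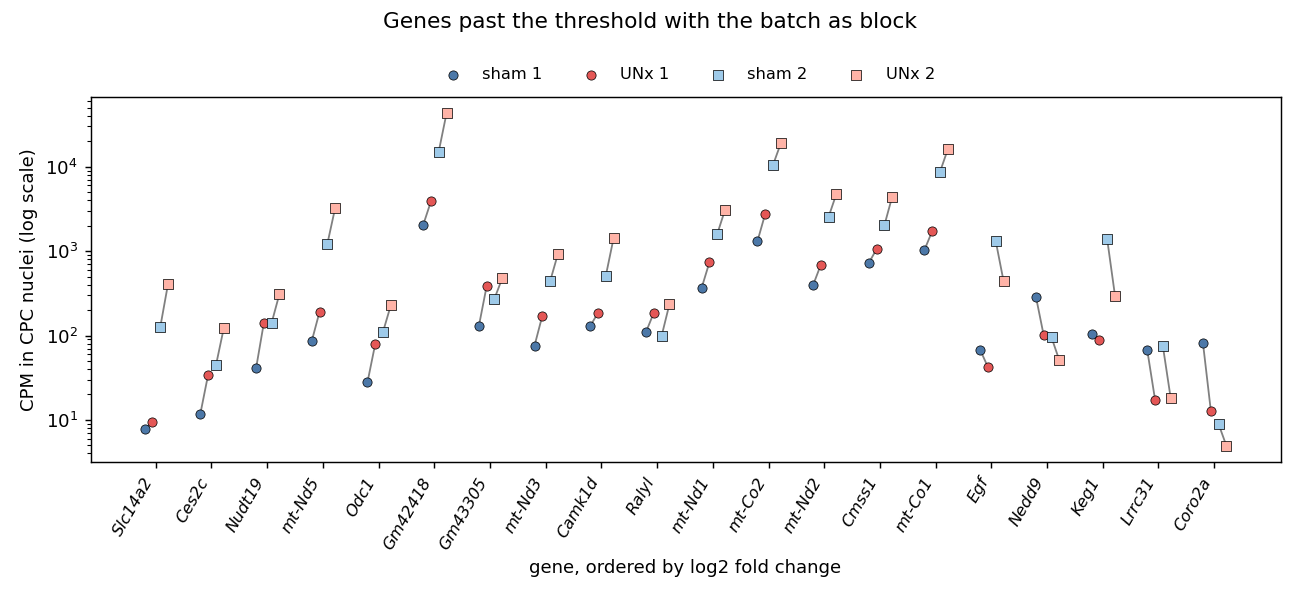
The y axis is the level in CPC in CPM (log scale) and each point is 1 mouse; lines join the sham and UNx mouse of a batch, for the 20 genes called with the batch as a block, ordered by log2 fold change. Every line of a gene runs the same way, and only Lrrc31, Ralyl and Gm43305 have groups that do not overlap. Over all genes tested, 19.2% do not overlap, counting both directions.

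Mitochondrially encoded RNA was higher in both UNx mice than in the sham mouse of the same batch. It made up 0.810, 6.05, 1.54 and 10.0% of the CPC UMIs. All 13 of the mitochondrially encoded protein genes were tested, and all 13 were higher in UNx in both batches, against 24.2% of all genes tested. With the block 6 were called higher, and the median log2 fold change of the 13 was 0.84 (0.79 without the nuclei above 15000 UMIs). mt-Nd5, a subunit of respiratory complex I, had the lowest p of all genes with the block, at 85.7 and 1217 CPM in sham and 191 and 3242 CPM in UNx (1.35 ± 0.20, adjusted p = 0.00108). mt-Nd3 (1.15 ± 0.20), mt-Nd1 (1.01 ± 0.18), mt-Co2 (0.99 ± 0.19), mt-Nd2 (0.88 ± 0.18) and mt-Co1 (0.84 ± 0.19) followed. In all 6 genes sham 2 was above UNx 1, so the direction is seen within batches only.

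The same difference was seen in the other classes. The mitochondrially encoded share was higher in UNx in both batches in 23 of 23 classes, by 1.42- to 1.94-fold in batch 3 and 1.21- to 1.83-fold in batch 4. The rank of CPC among the 23 was 2 in batch 3 (1.90-fold) and 5 in batch 4 (1.65-fold). The 22 subunits of the respiratory chain that the nucleus encodes were all tested, and 0 were called, with a median of 0.09. Mitochondrial RNA is made outside the nucleus, and with 1 mouse of each group in a batch the operation and the nucleus preparation of a mouse cannot be told apart.

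**Figure D5:**
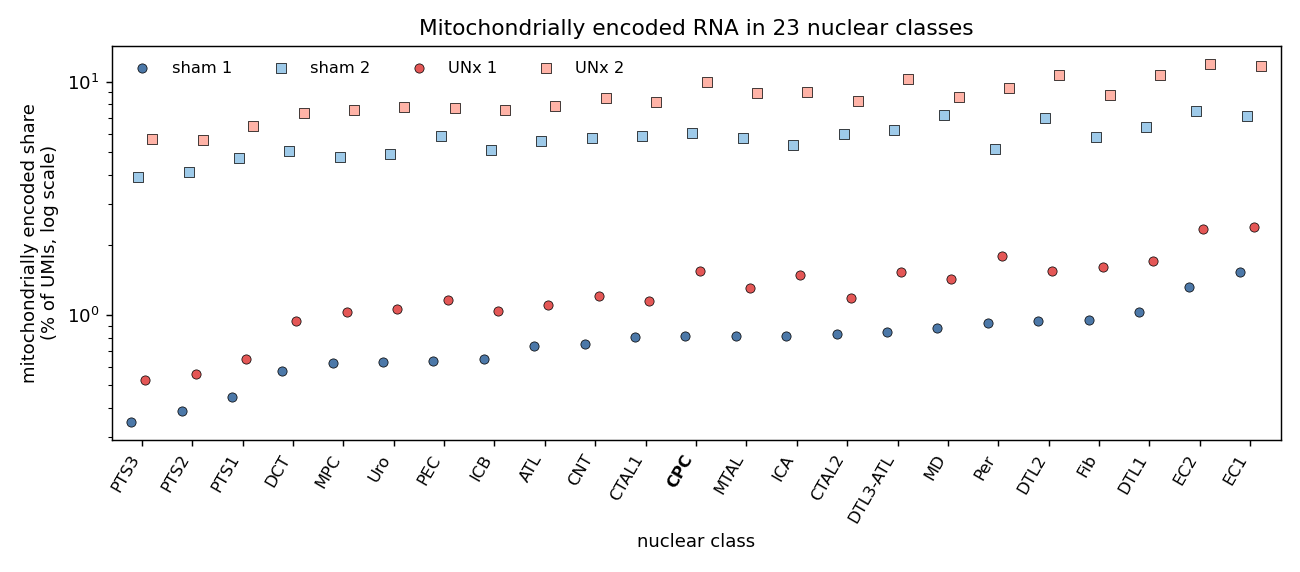
The y axis is the mitochondrially encoded share of the UMIs of a class in % (log scale), and each point is 1 mouse; the 23 classes on the x axis are ordered by sham 1. UNx lies above sham of the same batch in each class, and CPC (bold) has 0.810 and 6.05% in sham and 1.54 and 10.0% in UNx.

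Among the genes with the lowest p without the block whose groups did not overlap, Tle4, a transcriptional corepressor, was at 22.5 and 32.1 CPM in sham and 62.4 and 60.8 CPM in UNx (1.20 ± 0.32, adjusted p = 0.139). Bcl6, a transcriptional repressor, was at 20.4 and 40.6 CPM in sham and 54.8 and 87.9 CPM in UNx (1.30 ± 0.31, adjusted p = 0.0788), and came to 1.58 ± 0.34 without the nuclei above 15000 UMIs. Jpt2 was at 26.8 and 12.5 CPM in sham and 56.2 and 37.9 CPM in UNx (1.26 ± 0.38, adjusted p = 0.248). None of these passed the threshold, and the levels are low: the values of Tle4 rest on 21.0, 25.6, 58.1 and 37.0 estimated UMIs.

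In the other direction, Zfp385b, a zinc finger protein, was at 25.0 and 43.0 CPM in sham and 6.51 and 5.57 CPM in UNx (-2.40 ± 0.56, adjusted p = 0.0584). Clec2d, a C-type lectin, was at 49.3 and 45.2 CPM in sham and 20.4 and 8.21 CPM in UNx (-1.67 ± 0.41, adjusted p = 0.0816). Irs2, an adaptor of the insulin receptor, was at 36.4 and 40.2 CPM in sham and 10.8 and 16.4 CPM in UNx (-1.50 ± 0.45, adjusted p = 0.227). The groups did not overlap in any of the 3, which was a condition of the naming rule.

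Slc2a9, a urate transporter, was at 66.0 and 56.4 CPM in sham and 29.1 and 28.1 CPM in UNx (-1.10 ± 0.32, adjusted p = 0.211). Pdk2, a kinase that shuts pyruvate out of the citric acid cycle, was at 95.4 and 108 CPM in sham and 62.4 and 42.7 CPM in UNx (-0.91 ± 0.27, adjusted p = 0.199). Both metabolic genes were lower in UNx in each batch, and neither was called.

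Transcription factors of the collecting duct were tested as a list of 17, of which 16 were tested and 0 were called (median 0.17). Pax8 and Pax2, which direct kidney development, had the largest positive values. Pax8 was at 408 and 461 CPM in sham and 712 and 641 CPM in UNx (0.66 ± 0.18, adjusted p = 0.139), and Pax2 was at 787 and 822 CPM in sham and 1117 and 1262 CPM in UNx (0.58 ± 0.18, adjusted p = 0.282). The groups did not overlap for either, as for 8.84% of all genes in this direction. In MPC, Pax8 was at 655 and 659 CPM in sham and 1754 and 1125 CPM in UNx and was called with the block (1.16 ± 0.20, adjusted p = 0.00187), while the difference CPC minus MPC was -0.50 ± 0.31 (unadjusted p = 0.150).

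Genes of cholesterol synthesis and uptake gave a median log2 fold change of 0.37 over the 18 of 25 that were tested (0.38 without the nuclei above 15000 UMIs). Of these, 8 were higher in UNx in both batches and 0 were lower in both, where all genes tested gave 24.2% and 26.5%. None passed the threshold. Before adjustment, the p with the block fell below 0.05 for 1 of the 18, compared with 6.52% over all genes. Hmgcs1, an early enzyme of the pathway, was at 36.4 and 159.8 CPM in sham and 86.4 and 202 CPM in UNx (0.74 ± 0.24, adjusted p = 0.314). Calr, a chaperone of the endoplasmic reticulum, was at 20.4 and 93.6 CPM in sham and 45.2 and 192 CPM in UNx (1.12 ± 0.26, adjusted p = 0.0743). It had the largest value of the 10 tested genes of the unfolded protein response list, which ran from -0.85 to 1.12 (median 0.01). Hmgcs1 and Calr did not have the lowest p of their lists in the fit without the block and were named after their values were seen. Npas2, a clock gene, was at 9.64 and 7.53 CPM in sham and 42.5 and 14.8 CPM in UNx (1.68 ± 0.53, adjusted p = 0.307).

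Most genes of cell division had too few counts to be tested. Of 22 mitosis genes 4 were tested, with a median log2 fold change of -0.998. Of the 4, 3 were lower in UNx in both batches, against 26.5% of all genes tested, and 0 were called. The whole list summed to 173, 98.6, 103 and 51.2 CPM, lower in UNx in each batch. Prc1, which bundles microtubules in dividing cells, was at 12.9 and 13.8 CPM in sham and 4.30 and 1.64 CPM in UNx (-2.02 ± 0.78, adjusted p = 0.575). Mki67, the proliferation marker Ki-67, named after its values were seen, was at 24.6 and 15.1 CPM in sham and 15.1 and 0 CPM in UNx (-1.41 ± 0.63, adjusted p = 0.700). These were the 2 genes of the list with an unadjusted p under 0.05, which 6.52% of all genes tested had, and their levels are low. Without the nuclei above 15000 UMIs only 2 genes of the mitosis list could be tested, and 0 had an unadjusted p under 0.05. The mitosis list then summed to 173, 136, 103 and 55.7 CPM. Of 22 DNA replication genes 5 were tested and 0 were called (median 0.43), and that list summed to 267, 260.2, 346 and 259.6 CPM. Of the 13 genes of tubular injury 4 were tested and 0 were called; Havcr1, the injury marker KIM-1, was at 0, 1.25, 0 and 3.29 CPM, and Lcn2 at 7.50, 3.76, 5.38 and 4.93 CPM. The remaining lists (Notch, local regulators, tight junctions, growth factor signalling, fatty acid oxidation, unfolded protein response, immediate early genes, clock, glucocorticoid response, STAT5, and Hippo) also had 0 genes called with the block.

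Whether the effect of UNx in CPC differed from that in its neighbours was tested within mice, which takes out what the classes of a mouse share. No gene passed for CPC minus CNT (0 of 11018, with 255, or 2.31%, at an unadjusted p under 0.05) or for CPC minus MPC (0 of 11713, with 182, or 1.55%), and DESeq2 also called 0 in each. With a batch term for each class, added after the data were seen, 19 (0.172%) and 18 (0.154%) genes passed. Without the nuclei above 15000 UMIs these counts were 0 and 1.

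Alcam, an adhesion molecule, had the lowest p for CPC minus CNT among genes with a mean of at least 20 CPM in CPC whose class difference within a mouse did not overlap between the groups. In CPC it was at 76.4 and 124 CPM in sham and 40.9 and 49.3 CPM in UNx, and in CNT at 23.1 and 67.9 CPM in sham and 72.4 and 89.9 CPM in UNx. The difference of the effects was -2.11 ± 0.39 (unadjusted p = 0.000355), lower in UNx in CPC and higher in CNT in both batches. In MPC it was at 620.1 and 211 CPM in sham and 926 and 385 CPM in UNx, again the opposite direction to CPC in both batches. With the batch term the adjusted p was 2.07e-05 against CNT and 5.27e-08 against MPC.

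Gulp1, an adaptor for engulfment of dying cells, was the gene named first, by the same rule, on the higher side of CPC minus MPC, at 1.70 ± 0.44 (unadjusted p = 0.00530). In CPC it was at 553 and 150.2 CPM in sham and 458 and 188 CPM in UNx, while MPC fell from 63.0 and 32.8 CPM in sham to 14.1 and 13.7 CPM in UNx (-1.67 ± 0.35, adjusted p = 0.0138 with the block). The difference thus lay in MPC, and CPC gave -0.01 ± 0.20. Wdr78, a component of cilia, was called lower with the block in CNT (-1.76 ± 0.36, adjusted p = 0.0150) and gave 0.34 ± 0.36 in CPC. Ralyl, in contrast, was called higher in CPC, and in CNT, at 6.97, 37.1, 2.45 and 9.60 CPM, its log2 fold change was -1.77 ± 0.56 (adjusted p = 0.220).

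The share of CPC among all nuclei was 2.83% (exact 95% interval 2.40 to 3.31) in sham 1, 2.57% (2.00 to 3.25) in sham 2, 2.87% (2.43 to 3.37) in UNx 1 and 2.26% (1.78 to 2.82) in UNx 2. The means were 2.70 ± 0.178% in sham and 2.57 ± 0.435% in UNx (SD, n = 2 mice each), a difference of -0.135 percentage points that is smaller than the spread in UNx. The intervals of all 4 mice overlapped and cover counting error only. Among the connecting tubule, principal and intercalated nuclei the share was 24.2, 18.2, 23.3 and 18.4%, with the batches further apart than the groups. Of the principal cell nuclei of cortex and medulla together, 49.5, 31.9, 42.8 and 32.6% were cortical. Each library comes from 1 slice, and how much cortex and medulla a slice held cannot be told apart from the group. No test was made, because an exact two-sided permutation test of 2 mice against 2 cannot give a p below 0.333.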

How the data were processed

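The deposited table holds estimated counts of UMIs per nucleus without normalization (13.9% of its nonzero values are not whole); per the submitters' processing notes it was made with alevin and Seurat on mm10, with no settings named. Classes were read from the authors' annotation. How nuclei were filtered, and whether doublets were removed, is not given in the sources used here; no doublets were called. Estimated counts were summed per mouse and class and rounded. edgeR 4.0.16 in R 4.3.3 tested UNx against sham (quasi-likelihood, two-sided, filterByExpr, TMM, Benjamini-Hochberg over all genes tested, called under 0.05) with the 2 mice of a group as replicates. Differences of effects used a class-by-group term with the mouse as a block. The SE was taken as the log2 fold change over the root of F. CPM are per 1000000 UMIs of the class sum, without TMM. CPC sums held 0.609 to 0.933 M (1000000) UMIs, and intervals of shares are exact (Clopper-Pearson, 95%).

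The labels say that equal replicate numbers share a batch, so the numbers pair the mice: deviations from the group means of same-numbered mice correlated at 0.733, and the first component (75.9% of the variance) separated the batches. The fit with the batch as a block was run beside the fit without it. The 2 mice of a group, which lie in different batches, differed beyond sampling noise (chi-square per gene 16.8 in sham and 17.6 in UNx). The sham and UNx mouse of the same batch gave 3.17 in batch 3 and 4.58 in batch 4. DESeq2 1.42.0 and limma 3.58.1 (voom) were alternatives. Gene coordinates are those of GENCODE M21 on mm10. The class, the gene lists and the tests were chosen with earlier results of these data known. Genes that could be named were, from the fit without the block, the 8 with the lowest p in each direction (mean of at least 20 CPM, no overlap between groups, predicted genes passed over), the lowest p of each list, every gene of the 4 transport and hormone lists, the 2 with the lowest p for each class difference and sign, and the markers. The bulk libraries were not used here, and 2 genes are not reported here.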

Additional observations from a re-analysis of the deposited data

Results flagged for a closer look

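A batch term for each class, added after the data were seen, gave a tested difference between CPC and a neighbouring class in the effect of UNx for 19 genes against CNT and 18 against MPC. Among the markers, listed and named genes these are 9 and 5, which are given here. Each value is the log2 fold change in CPC minus that in the other class, ± SE, from edgeR with the 2 mice a group. Without that term 0 of these passed (adjusted p = 0.9996 against CNT and 1.00 against MPC), and without nuclei above 15000 UMIs the counts over all genes were 0 and 1.

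Against CNT, Ralyl gave 3.00 ± 0.52 (adjusted p = 2.34e-05), Wdr78 2.11 ± 0.52 (0.0330), Zfp981 1.09 ± 0.21 (0.000399) and Alcam -2.14 ± 0.37 (2.07e-05). Zfp981 belongs to a family of near-identical zinc finger genes, whose reads the counting could split. The marker of the connecting tubule Slc8a1 gave -0.87 ± 0.12 (7.65e-10): in CNT it was at 33680.1 and 14742 CPM in sham and 60399 and 25554 CPM in UNx, and in CPC at 1765, 989, 1311 and 1297 CPM. Slc12a1, the sodium transporter of the thick ascending limb, gave -0.90 ± 0.21 (0.0216), Nedd9 -1.05 ± 0.27 (0.0405), Gm43305 1.69 ± 0.31 (6.05e-05) and Slc14a2 2.27 ± 0.35 (2.77e-07).

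Against MPC, Alcam gave -1.87 ± 0.28 (5.27e-08), Gulp1 1.70 ± 0.33 (0.000343), Coro2a -2.27 ± 0.50 (0.00639), Gm42418 0.40 ± 0.08 (0.000796) and Slc14a2 1.54 ± 0.16 (6.06e-18). Slc14a2 is the leading gene of MPC itself, at 14655, 7526, 16628 and 6841 CPM there, and its level in CPC was 7.86, 125, 9.36 and 409 CPM.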

How the results depend on the processing

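With the batch as a replicate block, which follows the pairing of the labels, the count of called genes in CPC went from 0 to 20. With the block it was 20 with DESeq2 size factors, 11 with the DESeq2 Wald test, 46 with limma voom, 55 without a filter on low counts, 14 without mitochondrially encoded genes and 52 without the 5% of nuclei with the most UMIs in each mouse. These combinations were chosen after the data were seen. The other alternatives without the block gave 0, as did leaving out each mouse (0 to 0). CPC minus CNT gave 9 genes without a filter and 0 to 2 with 1 mouse left out (2 without UNx 1 or without UNx 2), and 19 with the block on the class difference. CPC minus MPC gave 2 without a filter, 0 to 15 with 1 mouse left out (15 without UNx 1), 18 with the block on the class difference and 1 with it and without nuclei above 15000 UMIs. With 1 mouse left out, the lone mouse of a group is assumed to vary like the others. The cause was not tested.

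Signs of single genes in the fit without the block, where none was called, changed as follows. Nr3c2 (-0.02) came to 0.027 with the replicate block, 0.024 with voom, 0.033 with the block and DESeq2 size factors, 0.034 with the block and the Wald test, 0.015 with the block and voom, 0.012 with the block and no filter, and 0.027 with the block and no mitochondrially encoded genes. Scnn1g (-0.09) came to 0.010 with voom and 0.00069 with the block and the Wald test. Scnn1b (0.16) came to -0.033 without nuclei above 15000 UMIs, with and without the block, Avpr2 (0.13) to -0.0020 without these nuclei, and Kcnj1 (0.02) to -0.019 without the top 5% of nuclei and -0.022 with the block as well. Per1 (0.12) came to -0.078 with voom, and Gulp1 (-0.13) to 0.053 with voom and 0.026 with the block and the Wald test. Leaving out 1 mouse without the block also takes away the balance of the batches. The log2 fold changes then ran from -1.06 to 0.84 for Aqp3, -0.79 to 0.40 for Aqp4, -0.18 to 0.38 for Avpr2, -1.28 to 0.45 for Crem, -0.10 to 0.51 for Scnn1b and -0.54 to 0.59 for Scnn1g. They ran from -0.40 to 0.76 for Fxyd4, -0.50 to 0.68 for Nr3c2, -0.66 to 0.57 for Hsd11b2, -0.26 to 0.38 for Kcnj1 and -0.59 to 0.38 for Kcnq1. For mitochondrial genes the ranges were -1.82 to 4.43 (mt-Nd5), -0.64 to 2.94 (mt-Nd3), -0.46 to 2.47 (mt-Nd1), -1.15 to 3.16 (mt-Co2), -1.16 to 2.89 (mt-Nd2) and -1.55 to 3.22 (mt-Co1). The ranges were -1.20 to 3.64 for Gm42418, -2.81 to 4.88 for Slc14a2, -0.84 to 2.75 for Camk1d, -0.43 to 2.01 for Cmss1, -4.08 to 1.93 for Egf, -3.12 to 0.97 for Keg1, -3.09 to 0.069 for Coro2a, -0.24 to 2.04 for Hmgcs1, -0.020 to 0.79 for Adcy6, -0.49 to 0.59 for Per1, -0.81 to 1.11 for Gulp1 and -0.39 to 2.60 for Calr. In all, 917 of 1103 values of the 58 genes kept their direction and their side of the threshold.

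Depth limits the small classes: 68 and 76 CPC nuclei came from the mice of batch 4, and the CPC share moved by less than the spread between mice with the class groups, the nuclei outside the proximal tubule or the nuclei up to 15000 UMIs as denominator (UNx minus sham from -0.352 to 0.0419 percentage points). Of CPC and MPC together the difference was -3.02 points, against an SD of 12.4 in sham and 7.18 in UNx.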
